A study of Mus musculus with 16 samples.

Results

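Histone genes make up 57 of the 19505 genes named on the array. They were chosen by name, as every gene whose annotated symbol begins with H1f, H2ac, H2bc, H3c or H4c followed by a digit. By class they were 8 genes for H1, 13 for H2A, 15 for H2B, 10 for H3 and 11 for H4. RefSeq places 46 of them on mouse chromosome 13, 8 on chromosome 3, 2 on chromosome 6 and 1 on chromosome 15. Their expression was measured in liver and in eWAT, the labels' name for the white adipose tissue sampled, of male C57BL/6J mice aged 14 weeks. C57BL/6J is an inbred laboratory strain. The fathers of the CT offspring had eaten chow. The fathers of the F1 offspring had eaten a high-fat diet with 45% lipids for 12 weeks from the age of 8 weeks and were obese. All mothers were control females, and the labels name no diet, allele or agent given to the offspring. Both kinds of offspring were sampled in both tissues, with 4 libraries in each of the 4 groups, numbered as biological replicates. No source used here names the father or litter of an animal, and the p-values therefore describe the variation among these animals only. The comparisons ask what paternal obesity goes with in the liver and eWAT of the offspring, whether a histone gene responds differently in the tissues, and how liver and eWAT themselves compare.

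Histones are the proteins around which DNA is wound. H2A, H2B, H3 and H4 form the core of the nucleosome, and H1 binds the linker DNA between nucleosomes. Most genes of the set are replication-dependent: they lie in clusters, are transcribed in S phase when new DNA must be packed, and yield mRNAs that end in a stem-loop and not in a poly(A) tail. A few members are not of that kind, such as H1f10, a linker histone made outside S phase, and H2ac1, H2bc1, H1f6 and H1f7, which are known from male germ cells. Many core histone genes encode the same or almost the same protein, so their transcripts are alike, and a probe set may read more than 1 gene. H3c14 and H3c15 had equal values in all 16 libraries. They are 1 measurement, given as H3c14/H3c15, but count as 2 genes in every count of members below.

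The sequences upstream of these genes were read from RefSeq (GRCm38.p6), where 52 of the 57 members matched an entry. H3c7, H3c1, H4c14, H2bc4 and H2bc21 had no entry. The 250 bases before the start are shown for the genes on which the results below turn, in the 5′ to 3′ direction of the gene. H4c3 and H4c8 had the smallest p of the H4 genes between the offspring groups in eWAT, H3c13, H3c14 and H3c15 had the largest differences of the H3 genes in liver, and H2ac12 had the largest difference between the tissues among H2A genes on the quantile-normalised scale (with the deposited values, and with library medians removed, H2ac15 exceeded it). The windows are chr13:23698459-23698708 on the minus strand for H4c3, chr13:23530794-23531043 on the plus strand for H4c8, chr3:96268404-96268653 on the plus strand for H3c13, chr3:96246435-96246684 on the plus strand for H3c14, chr3:96239128-96239377 on the minus strand for H3c15 and chr13:22035644-22035893 on the minus strand for H2ac12. Capitals mark matches to any of 4 motifs on either strand: TATAAA, a core promoter element, the CCAAT box, the octamer ATTTGCAT, and GGTCCG, which is part of a site described in H4 promoters.
H4c3: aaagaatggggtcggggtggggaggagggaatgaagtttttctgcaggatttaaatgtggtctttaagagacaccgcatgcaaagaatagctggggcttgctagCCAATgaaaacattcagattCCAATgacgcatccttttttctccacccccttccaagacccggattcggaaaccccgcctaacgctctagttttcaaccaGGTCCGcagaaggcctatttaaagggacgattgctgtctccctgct
H4c8: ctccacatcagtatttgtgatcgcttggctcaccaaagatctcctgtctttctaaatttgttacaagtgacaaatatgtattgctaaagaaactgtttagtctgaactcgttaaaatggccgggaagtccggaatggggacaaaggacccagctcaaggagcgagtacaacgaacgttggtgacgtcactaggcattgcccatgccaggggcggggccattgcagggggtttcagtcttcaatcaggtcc
H3c13: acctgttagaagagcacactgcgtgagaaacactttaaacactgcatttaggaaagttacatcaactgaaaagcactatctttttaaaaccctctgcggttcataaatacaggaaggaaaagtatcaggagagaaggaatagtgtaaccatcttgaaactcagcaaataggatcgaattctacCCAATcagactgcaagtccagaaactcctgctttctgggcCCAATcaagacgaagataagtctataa
H3c14: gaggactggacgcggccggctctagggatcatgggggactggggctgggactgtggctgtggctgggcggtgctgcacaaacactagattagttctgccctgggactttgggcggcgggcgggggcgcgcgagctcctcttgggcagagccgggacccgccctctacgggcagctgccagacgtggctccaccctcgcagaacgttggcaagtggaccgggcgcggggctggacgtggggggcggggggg
H3c15: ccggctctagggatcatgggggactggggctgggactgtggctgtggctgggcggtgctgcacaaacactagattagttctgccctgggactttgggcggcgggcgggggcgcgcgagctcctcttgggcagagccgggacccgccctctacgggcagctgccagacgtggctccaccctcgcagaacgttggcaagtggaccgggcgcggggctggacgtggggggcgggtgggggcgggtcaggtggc
H2ac12: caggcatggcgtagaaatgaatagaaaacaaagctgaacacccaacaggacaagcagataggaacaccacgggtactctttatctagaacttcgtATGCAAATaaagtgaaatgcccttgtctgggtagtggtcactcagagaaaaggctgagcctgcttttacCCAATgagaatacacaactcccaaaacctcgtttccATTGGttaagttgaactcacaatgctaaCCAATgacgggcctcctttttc
H4c3 holds CCAAT at 2 places and GGTCCG at 1, H3c13 holds CCAAT at 2 places, and H2ac12 holds CCAAT at 3 and the octamer at 1. No match was found in the windows of H4c8, H3c14 and H3c15. The H4c8 window ends in ggtcc and the H3c13 window in tataa, and a motif that crosses the edge of a window is not counted here. The windows of H3c14 and H3c15 were copies of each other, with 284 of 285 aligned bases identical over the longer table entries. CCAAT was present in 13 of 13 H2A, 13 of 13 H2B, 6 of 8 H1 and 6 of 8 H3 windows and in 3 of 10 H4 windows, beside 33.8% of all 32851 promoters in the table. The octamer was present in 6 of 13 H2A and 6 of 13 H2B windows and in no H1, H3 or H4 window, beside 1.60% of all promoters. GGTCCG was present in 7 of 10 H4 windows, beside 6.72% of all promoters, and in 1 of 8 H1, 1 of 8 H3, 1 of 13 H2B and 0 of 13 H2A windows. TATAAA was present in 7 of 13 H2A, 7 of 13 H2B, 5 of 10 H4, 3 of 8 H1 and 2 of 8 H3 windows, beside 12.4%. In 7 pairs an H2A and an H2B gene lie head to head and their windows overlap by 163 to 248 bases, so members of such a pair share sequence and motif matches. These are matches of letters and say nothing of binding in these tissues.

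The defining markers of the labelled tissues were present. The median level of 10 hepatocyte markers was 19.80 to 19.92 (log2) in liver, but also 7.13 to 15.32 in eWAT, where Alb was at 12.43 to 19.07. That of 9 adipocyte markers was 17.76 to 18.03 in eWAT and 4.03 to 4.93 in liver. Libraries of the same group correlated at 0.976 to 0.991, and at most 1.43% of values were equal between 2 libraries of a group, so none was treated as a copy. Pairs from different groups were not checked for equal values. A pair of libraries stood apart and touch histone results. In eWAT CT 4, all 12 of 12 male germ-cell markers lay above the library's 25th percentile, with a median of 9.02, against 2.65 to 3.23 in the other 7 eWAT libraries, where 7 to 9 of the 12 lay below that percentile. In Liver F1 4, all 9 exocrine pancreas markers lay above it, with a median of 12.13, against 4.04 to 5.22 in the other 7 liver libraries. Further libraries differed in markers too. Hepatocyte medians were 8.45 and 7.13 in eWAT CT 1 and CT 2 and 11.05 to 15.32 in the other eWAT libraries. The male tract gene Pate4 was at 11.20 in eWAT F1 1 and at 2.65 to 3.82 elsewhere in eWAT. Skeletal muscle medians were 4.70 and 4.47 in Liver F1 1 and F1 2, against 3.59 to 3.84 in the other liver libraries. In bulk tissue, fewer cells of a type and less RNA per cell cannot be told apart.

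Histone genes moved with these libraries. Each member's deviation from its median over the 8 libraries of the tissue was taken, and the deviations of a class were summarised by their median. In eWAT CT 4 that median was 1.20 (log2) for H2A, 1.02 for H3, 0.57 for H1, 0.45 for H2B and 0.24 for H4, while over all genes it was -0.02. This library had the highest of the 8 eWAT values in 9 of 9 H3 and 11 of 13 H2A genes, but in 8 of 15 H2B and 1 of 11 H4 genes. In Liver F1 4 the medians were 0.60 for H1, 0.58 for H2B, 0.48 for H2A, 0.34 for H3 and 0.14 for H4, and 10 of 13 H2A genes had their highest liver value there. Among the other libraries the class medians ran from -0.37 to 0.44. For H4 the highest medians were in other libraries, 0.435 in eWAT F1 3 and 0.335 in Liver CT 3. Each of these held the highest value of its tissue in 8 of 11 H4 genes. Each comparison within a tissue is therefore given with and without the library of that tissue that stood apart, the interaction and the tissue comparison in CT also without eWAT CT 4, and the tissue comparison in F1 also without Liver F1 4. For the values below, the part of the germ-cell or pancreas transcripts in the histone values was not tested.

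**Figure D1:**
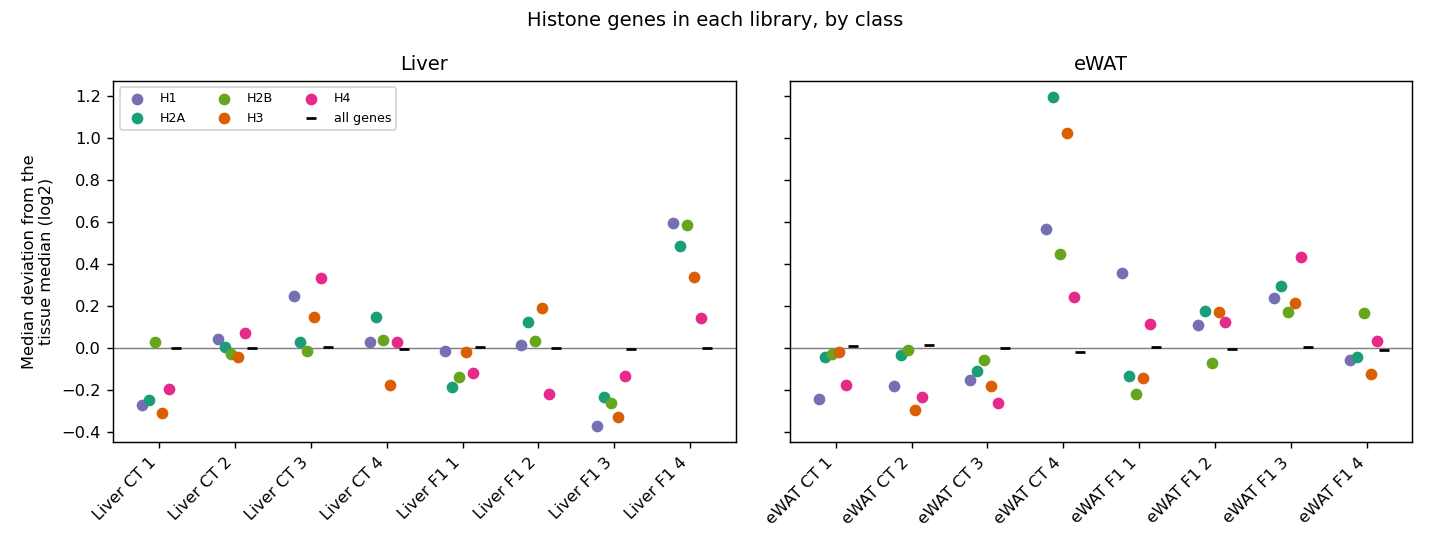
Median deviation of the genes of each histone class from their tissue median (log2, vertical axis) in each of the 8 liver and 8 eWAT libraries (horizontal axis), with the median of all genes as a dash. In all classes but H4, library eWAT CT 4 stands highest in eWAT, with 1.20 for H2A and 1.02 for H3. In the same classes Liver F1 4 stands highest in liver, with 0.60 for H1 and 0.58 for H2B. For H4, eWAT F1 3 (0.435) and Liver CT 3 (0.335) stand highest.

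In liver, H4c3 was lower and H3c13, H3c14/H3c15 and H4c14 were higher in the offspring of obese fathers than in those of control fathers, but no histone gene passed the test. With limma, 0 of the 53 members bright enough to test had an adjusted p under 0.05, beside 0.156% of all 14772 genes tested (23 genes). H1f6, H1f7, H1f8 and H1f10 were too dim in liver to be tested. At an unadjusted p under 0.05, 4 members were higher and 3 were lower in F1, beside 4.46% and 4.66% of all genes. The 4 F1 values were all above the 4 CT values in 4 members, beside 2.68% of all genes, and all below in 1, beside 2.68%. H3c14 and H3c15 are 1 measurement, so each of these counts of 4 rests on 3 measurements. The median difference over the 53 members was -0.01, and over all genes it was 0.00.

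Among the H4 genes, which encode the most conserved core histone, H4c3 had the smallest p. Its log2 values were 10.24, 10.35, 10.62 and 10.20 in Liver CT and 9.58, 9.45, 9.49 and 9.87 in Liver F1. All 4 F1 libraries lay below all 4 CT libraries. The means were 10.35 ± 0.19 and 9.60 ± 0.19 (SD, n = 4 each), a difference of -0.76 ± 0.16 (SE), or 1.69-fold, with a limma adjusted p of 0.152. H4c14, the H4 gene on chromosome 3, went the other way, with 9.32, 9.41, 9.51 and 9.25 in CT and 10.06, 9.81, 9.82 and 9.80 in F1. The groups did not overlap, and the difference was 0.50 ± 0.14 (adjusted p = 0.292). Over the class, 9 of 11 genes were lower in F1, with a median difference of -0.19. H4c1 (-0.45 ± 0.27), H4c6 (-0.26 ± 0.20) and H4c2 (-0.24 ± 0.17) followed H4c3 in size, and H4c8 (-0.01 ± 0.17) and H4c11 (0.04 ± 0.14) lay at 0. Library Liver CT 3 held the highest liver value in 8 of the 11 genes. As a CT library it lowers F1 minus CT in these genes, so the class direction may rest on it in part. The class count without it was not taken. Without Liver CT 3, H4c3 was at -0.67 (limma adjusted p = 0.324) and H4c14 at 0.55 (adjusted p = 0.419).

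The H3 genes were split. H3c13 had values of 8.63, 9.19, 8.90 and 8.96 in Liver CT and 9.82, 10.15, 9.35 and 9.92 in Liver F1. H3c14 and H3c15 had 8.44, 8.58, 8.78 and 8.70 in CT and 9.43, 9.95, 8.97 and 9.89 in F1. In both measurements every F1 library was above every CT library, and F1 replicate 3 was the lowest of its group. The differences were 0.89 ± 0.20 for H3c13 (1.85-fold, limma adjusted p = 0.176) and 0.94 ± 0.22 for H3c14/H3c15 (1.91-fold, adjusted p = 0.208). H3c7 was lower in F1, with 8.05, 7.88, 8.10 and 8.27 in CT against 7.38, 6.94, 7.27 and 7.94 in F1. Its groups overlapped only through F1 replicate 4, and the difference was -0.69 ± 0.21 (adjusted p = 0.346). H3c3 (-0.58 ± 0.24, adjusted p = 0.519) and H3c6 (-0.57 ± 0.29, adjusted p = 0.611) lay on the same side. H3c8, H3c10 and H3c11 were within 0.08 of 0, and H3c1 was at 0.29 ± 0.20.

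After the values had been seen, the H3 and H4 genes were divided by chromosome. The 4 on chromosome 3 (H3c13, H3c14, H3c15 and H4c14) were all higher in F1 in liver, with a median difference of 0.91. Of the 17 on chromosome 13, 15 were lower, with a median of -0.19. The 4 H2A and H2B genes of chromosome 3 did not share the direction of their neighbours: H2ac20 (-0.33 ± 0.25), H2bc18 (-0.44 ± 0.22) and H2bc21 (-0.36 ± 0.22) were lower, and H2ac21 (0.02 ± 0.16) lay near 0. In eWAT the division looked different: 1 of the 4 H3 and H4 genes of chromosome 3 was higher in F1 (H4c14), and 14 of the 16 tested on chromosome 13 were. Without eWAT CT 4 these counts were 2 of 4 and 16 of 16. No test was made of this division.

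H2A, H2B and H1 genes gave small differences in liver. Of the 13 H2A genes 7 were higher and 6 lower, with a median of 0.01, and of the 15 H2B genes 8 were higher and 7 lower, with a median of 0.03. The widest in these classes were H2bc18 and H2bc8 (-0.41 ± 0.20, adjusted p = 0.592). H2bc8 read 6.03, 5.81, 5.96 and 5.89 in CT and 5.10, 5.34, 5.59 and 6.02 in F1, so 3 of the 4 F1 libraries lay below the CT range. The 4 tested H1 genes, which encode linker histones, lay between -0.00 and 0.15. Bounds were wide: the 95% interval for H2ac12, for example, was -0.41 to 0.41.

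Leaving out Liver F1 4, the library with pancreas transcripts, moved more members below CT. Then 38 of the 53 were lower in F1, where it had been 29, and the median difference was -0.15. At an unadjusted p under 0.05, 4 were higher, beside 4.6% of all genes, and 7 lower, beside 4.56%, and 0 passed the adjusted threshold, beside 0.162%. The groups did not overlap in 4 members higher in F1, beside 4.56%, and in 5 lower, beside 4.57%. The differences were then -0.85 ± 0.17 for H4c3, 0.85 ± 0.23 for H3c13, 0.83 ± 0.24 for H3c14/H3c15 and 0.52 ± 0.16 for H4c14, as large or nearly as large as with it. H3c7 was at -0.88 ± 0.18 (adjusted p = 0.144) without that library. Among the H2B genes H2bc8 (-0.58 ± 0.17) and H2bc23 (-0.46 ± 0.17) were then the widest, and H2bc18 was at -0.28 ± 0.20. With it, all 9 pancreas markers tested were higher in F1, with a median of 1.82.

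**Figure D2:**
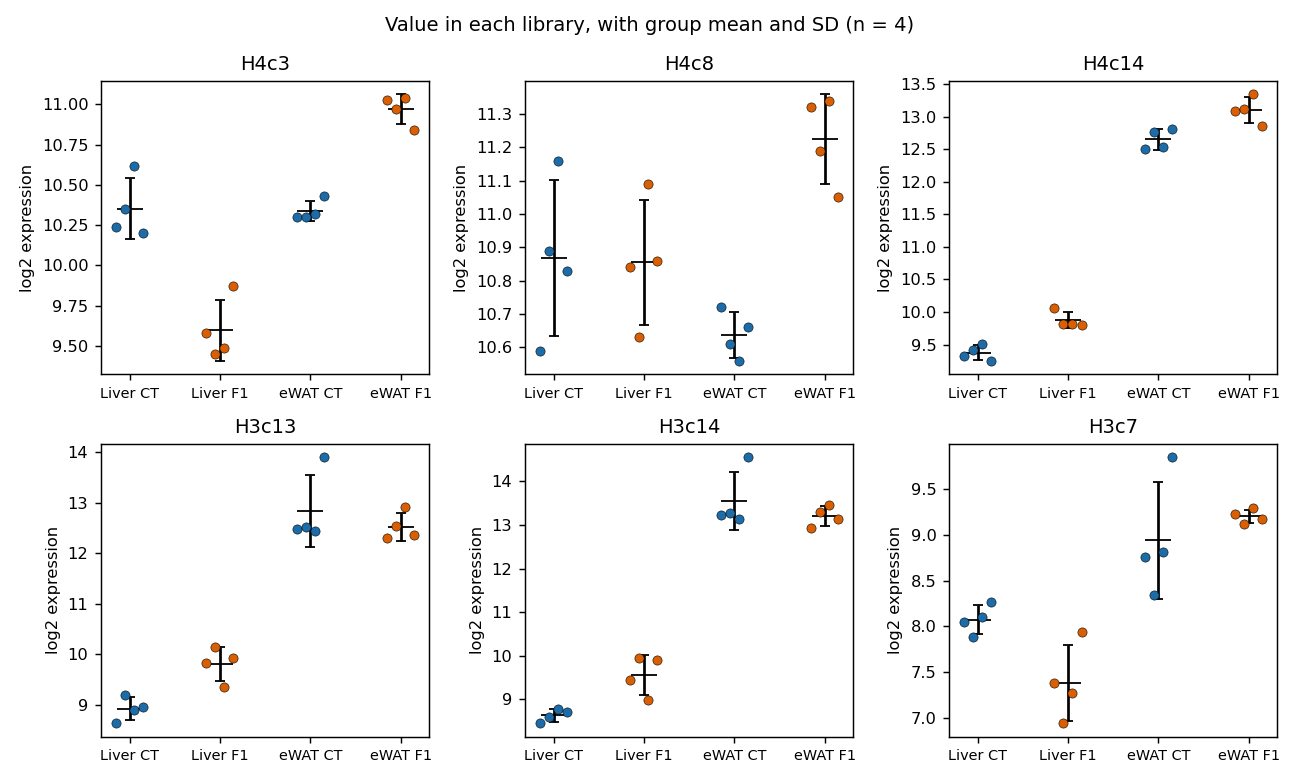
Log2 expression (vertical axis) of 6 histone genes in each library of the 4 groups (horizontal axis), with blue points for CT, orange points for F1 and bars for the group mean and SD (n = 4). H4c3 runs from 10.20 to 10.62 in Liver CT and from 9.45 to 9.87 in Liver F1, and from 10.30 to 10.43 in eWAT CT and from 10.84 to 11.04 in eWAT F1.

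In eWAT the H4 genes as a class were higher in the offspring of obese fathers, and no gene of any class passed the test. With limma, 0 of the 54 members tested were called, beside 0% of all 14766 genes. H1f6, H1f8 and H3c1 were too dim to be tested. At an unadjusted p under 0.05, 4 members were higher, beside 4.96% of all genes, and 0 were lower, beside 5.03%. These were H4c3, H4c8, H4c14 and the linker histone gene H1f10. In 3 members all F1 libraries lay above all CT libraries, beside 2.91% of all genes, and in 0 below, beside 3.01%. The median difference was -0.06 over the 54 members and 0.00 over all genes.

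H4c3 read 10.30, 10.30, 10.32 and 10.43 in eWAT CT and 11.03, 10.97, 11.04 and 10.84 in eWAT F1. The groups were apart by more than the range of either. The means were 10.34 ± 0.06 and 10.97 ± 0.09 (SD, n = 4 each), a difference of 0.63 ± 0.13 (1.55-fold, limma adjusted p = 0.362). H4c8 read 10.72, 10.61, 10.56 and 10.66 in CT and 11.32, 11.19, 11.34 and 11.05 in F1. H4c14 read 12.50, 12.76, 12.53 and 12.81 in CT and 13.08, 13.12, 13.34 and 12.86 in F1. In both genes the lowest F1 library, replicate 4, was still above the highest CT library. The differences were 0.59 ± 0.14 for H4c8 (adjusted p = 0.362) and 0.45 ± 0.16 for H4c14 (adjusted p = 0.414). The other 8 H4 genes lay on the same side, from 0.05 ± 0.16 for H4c11 to 0.41 ± 0.27 for H4c9. Over the class 11 of 11 were higher in F1, with a median of 0.38, where 7314 of all 14766 genes were higher. H4 transcripts are alike, so these genes are not independent measurements. Library eWAT F1 3 held the highest eWAT value in 8 of the 11. As an F1 library it raises F1 minus CT in these genes, so the class median may rest on it in part. The class count and median without it were not taken. Leaving out 1 library at a time, the difference ran from 0.61 to 0.68 for H4c3 and from 0.55 to 0.65 for H4c8.

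H1f10 read 5.97, 6.89, 5.83 and 6.35 in eWAT CT and 7.37, 7.16, 6.88 and 6.60 in eWAT F1. A single CT library, replicate 2, lay within the F1 range, and the difference was 0.74 ± 0.27 (adjusted p = 0.412). Of the other tested H1 genes, H1f2 was at 0.34 ± 0.20, H1f5 at 0.38 ± 0.24, H1f1 at 0.05 ± 0.47 and H1f3 at -0.07 ± 0.27. The H2A genes were lower in F1 in 12 of 13, with a median of -0.15, and the H2B genes in 9 of 15, with a median of -0.08. The H3 genes were lower in 5 of 9, with a median of -0.07, H3c13 at -0.31 ± 0.33 and H3c14/H3c15 at -0.35 ± 0.31.

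The direction of the H2A, H2B and H3 classes in eWAT rested on library eWAT CT 4, the one with germ-cell transcripts. Without it, 43 of 53 members were higher in F1, where it had been 26 of 54, with a median difference of 0.23. H2A genes were then higher in 11 of 13 (median 0.14), H2B genes in 9 of 14 (median 0.12), H3 genes in 7 of 9 (median 0.18) and H1 genes in 5 of 6 (median 0.49). Leaving out this CT library, at a median deviation of 0.245 for H4, raises F1 minus CT, so it is no check on the direction of the H4 class. The H4 class was then higher in 11 of 11 with a median of 0.50, and in 7 of these 11 the groups did not overlap. Over all members this held for 8 higher, beside 4.36% of all genes, and 0 lower, beside 5.44%. At an unadjusted p under 0.05, 9 members were higher, beside 4.5% of all genes, and 0 were lower, beside 5.16%. They were H1f1, H1f5, H1f10, H3c7, H4c3, H4c8, H4c9, H4c14 and H4c18. Of the 53 members 0 were called, beside 0.00677% of all genes (1 gene). H4c3 was at 0.66 ± 0.15, H4c8 at 0.60 ± 0.16, H4c18 at 0.55 ± 0.18 and H3c7 at 0.57 ± 0.18, the last against 0.26 ± 0.29 with all libraries. Macrophage markers were lower in eWAT F1 in 10 of 11 genes tested (median -0.40), and hepatocyte markers were higher in 10 of 10 (median 1.93). The medians of the latter per library ran from 7.13 to 14.23 in CT and from 11.05 to 15.32 in F1. Skeletal muscle markers were lower in 6 of 7 (median -0.80, 3 at an unadjusted p under 0.05), with medians per library of 3.64 to 5.66 in CT and 3.23 to 3.79 in F1. The part of these markers in the histone values was not tested.

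**Figure D3:**
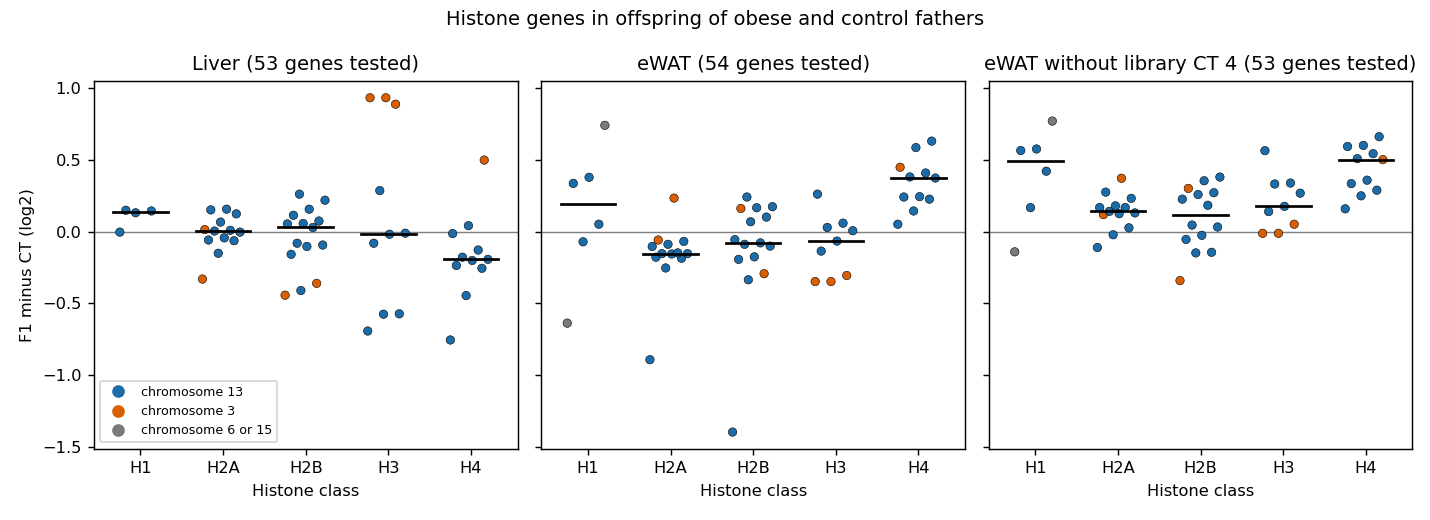
Difference between F1 and CT (log2, vertical axis) of each tested histone gene, by class (horizontal axis), in liver, in eWAT and in eWAT without library CT 4, with a black line at the class median and colours for the chromosome. In eWAT all 11 H4 genes lie above 0 with all libraries. Leaving out CT 4 raises F1 minus CT, so the third panel is no check on the H4 direction. The H2A median goes from -0.15 to 0.14 when that library is left out.

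The difference between F1 and CT depended on the tissue for H4c3. In a limma interaction fit over all 16 libraries, the F1 effect in liver minus that in eWAT was -1.39 ± 0.21 for H4c3 (adjusted p = 0.00909), with a 95% interval of -1.83 to -0.95. It was the 1 histone gene called among 54 tested, beside 0.0795% of all 15090 genes (12 genes). All 4 liver F1 libraries were below their CT group and all 4 eWAT F1 libraries above theirs. Over 20 other settings the value ran from -1.48 to -1.30 and the adjusted p from 0.00816 to 0.0460, and it was called in each. Without eWAT CT 4 it was -1.42 ± 0.22 (adjusted p = 0.0163), again the 1 member called of 54, beside 0.106% of all genes.

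At an unadjusted p under 0.05, 3 members were above 0 and 3 below, beside 4.9% of all genes each way. Besides H4c3 they were H3c14/H3c15 (1.28 ± 0.40, adjusted p = 0.319), H3c13 (1.20 ± 0.40, adjusted p = 0.361), H4c8 (-0.60 ± 0.22, adjusted p = 0.399) and H3c7 (-0.96 ± 0.37, adjusted p = 0.429). Without eWAT CT 4 the values were 0.95 ± 0.30 for H3c14/H3c15, 0.84 ± 0.29 for H3c13 and -1.26 ± 0.29 for H3c7 (adjusted p = 0.145), and 3 members were above 0 and 9 below at an unadjusted p under 0.05, beside 4.93% and 4.81% of all genes. The H4 class was on the side of H4c3 in 10 of 11 genes, with a median of -0.58. H4c14, at 0.05 ± 0.21, was the exception, since its F1 values were above CT in both tissues. The H4 genes are not independent measurements. Liver CT 3 and eWAT F1 3 each held the highest value of their tissue in 8 of 11 H4 genes. Both libraries move the interaction of such genes downward, and the class count without them was not taken. For H2A the interaction was above 0 in 11 of 13 genes, but in 3 of 13 without eWAT CT 4.

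Between the tissues, most H2A and H3 genes were higher in eWAT than in liver, in both offspring groups. Because the deposited libraries of the tissues did not share a distribution (medians of 5.21 to 5.24 in liver and 6.34 to 6.56 in eWAT), this comparison was made on values quantile-normalised over the 16 libraries. In CT offspring 38 of 54 members were called, beside 66.2% of all 15184 genes. Of these, 30 were lower in liver, beside 34% of all genes, and 8 were higher, beside 32.2%. In F1 offspring 43 of 55 were called, beside 65.5%, with 35 lower, beside 33.5%, and 8 higher, beside 31.9%. The 2 comparisons share no library. In both, 29 of 54 members were called lower in liver, beside 30.2% of all genes, and 5 higher, beside 27.7%.

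Of the H2A genes 10 of 13 were lower in liver in both offspring groups, and 1 was higher. H2ac12 had a mean of 14.08 in eWAT and 10.51 in liver in CT offspring on this scale, a difference of -3.57 ± 0.31 (limma adjusted p = 1.92e-06), and differed by -3.35 ± 0.20 in F1. The deposited values of H2ac12 were 13.76 to 15.13 in the 8 eWAT libraries and 9.61 to 10.30 in the 8 liver libraries, with no overlap. H2ac15 (-3.51 ± 0.48 in CT and -3.09 ± 0.28 in F1), H2ac11 (-3.39 ± 0.31 and -3.02 ± 0.18), H2ac24 (-3.31 ± 0.33 and -2.99 ± 0.22), H2ac22 and H2ac10 were also lower in both groups. Among H3 genes 7 of 9 were lower in liver in both groups and 0 were higher, and H3c14/H3c15 had the largest difference of any member in CT, -4.12 ± 0.32 in CT and -2.85 ± 0.24 in F1. H3c13 was at -3.02 ± 0.36 and -1.83 ± 0.22. The H2B genes, 7 of which lie head to head with an H2A gene, were lower in liver in both groups in 7 of 15, with H2bc13 at -2.18 ± 0.33 and -1.92 ± 0.26. H1f10, at -2.82 ± 0.22 and -3.11 ± 0.24, H1f2 and H1f5 were the H1 genes lower in liver in both groups.

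The H4 class differed from the rest. H4c14 (-2.39 ± 0.16 in CT and -2.44 ± 0.18 in F1) was lower in liver in both groups. H4c4 was too (-0.79 ± 0.20 and -1.20 ± 0.21), but was at 0.23 in CT with library medians removed, the 1 of the 29 members to change direction with the scaling. H4c8 (1.22 ± 0.17 and 0.58 ± 0.17) and H4c9 (1.44 ± 0.26 and 0.88 ± 0.24) were higher on the quantile-normalised scale. H4c3 was higher in liver in CT offspring, 1.07 ± 0.16 (adjusted p = 0.000136; 0.02 with the deposited values and 1.23 with medians removed), and at -0.31 ± 0.17 in F1 (adjusted p = 0.129). H2ac6, H2bc9 and H2bc23 were the other 3 members higher in liver in both groups, at 0.81 to 1.32 in CT. How many members were higher in liver depended on the scaling. With the deposited values the median of all genes moved to -0.80 in CT and in F1, and 43 members were called in CT, beside 74.4% of all genes, and 46 in F1, beside 75%. Of these, 0 were higher in CT, beside 18.4% of all genes, and 1 in F1, beside 18.8%. There H2ac6 was at -0.26, H2bc9 at -0.57, H2bc23 at -0.03, H4c9 at 0.11 and H4c8 at 0.23 in CT, and all of these were below 0 in F1. With library medians removed, the median of all genes was 0.42 in CT and 0.46 in F1, and 38 members were called in CT, beside 72.2%, and 43 in F1, beside 73.3%. Of these, 11 were higher in CT, beside 45.5%, and 12 in F1, beside 47.1%. The H2A class had a median of -2.66 (quantile-normalised), -3.71 (deposited) and -2.50 (medians removed) in CT, below 0 under each.

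Without eWAT CT 4, 39 of 53 members were called in CT offspring, beside 64.2% of all genes, 28 lower in liver (beside 33.4%) and 11 higher (beside 30.8%). H2ac12 was then at -3.25 ± 0.20 and H3c14/H3c15 at -3.78 ± 0.18. Without Liver F1 4, 42 of 54 members were called in F1 offspring, beside 63.4% of all genes, 34 lower (beside 32.6%) and 8 higher (beside 30.7%). Macrophage markers were also lower in liver than in eWAT, in 11 of 12 genes in CT, and their part in the histone values was not tested. The part of the hepatocyte transcripts read in eWAT (medians of 7.13 to 15.32) was not tested either.

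**Figure D4:**
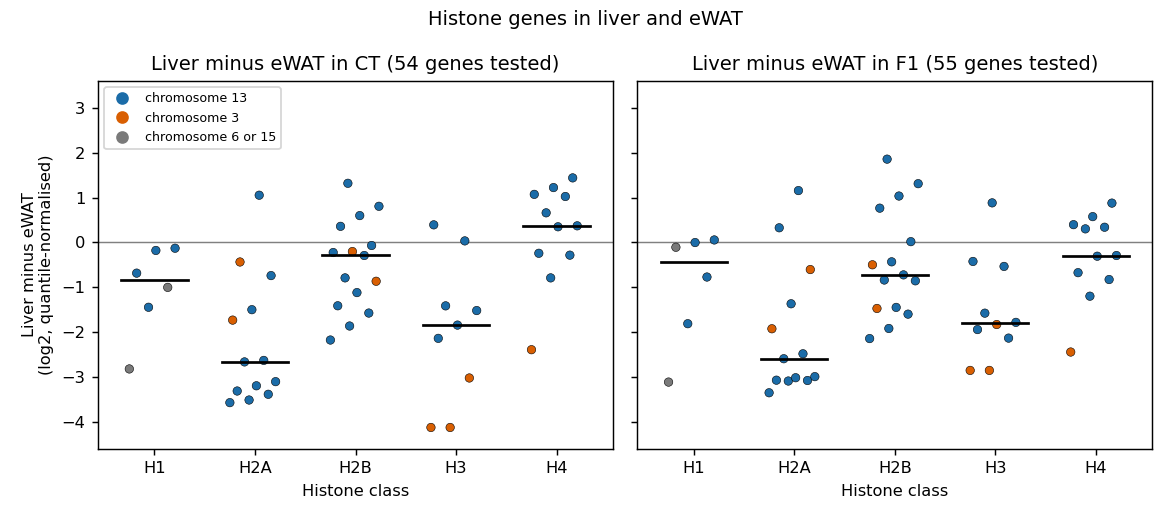
Liver minus eWAT (log2, quantile-normalised, vertical axis) of each tested histone gene by class (horizontal axis), in CT and in F1 offspring, with a black line at the class median and colours for the chromosome. H2A genes lie lowest as a class, with medians of -2.66 and -2.59, and H4 genes lie around 0, with medians of 0.37 and -0.29 here, -0.35 and -0.94 with the deposited values and 0.86 and 0.32 with medians removed.

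Several histone genes known from germ cells stood apart in 1 eWAT library. H2bc1, the testis H2B, was at 9.51 in eWAT CT 4 and at 2.96 to 3.92 in the other 7 eWAT libraries. H2ac1, the testis H2A that shares its promoter region with H2bc1, was at 8.69 there and at 5.01 to 5.39 in the others. H1f7, a linker histone of spermatids, was at 5.73 there and at 2.79 to 4.31 in the others. In the same library the protamines Prm1 and Prm2, which replace histones in sperm, were at 11.56 and 11.40, against at most 4.72 and 3.13 elsewhere in eWAT. H1f6, the testis H1, was at 3.46 there, below that library's 25th percentile of 3.55, and at 2.44 to 2.98 in the others. The oocyte linker histone H1f8 was at 2.27 there, the lowest of the 8. For these genes the spread of eWAT CT came from 1 library, and the F1 differences of -1.40 ± 1.26 for H2bc1 and -0.89 ± 0.71 for H2ac1 carry that spread. Without the library H2ac1 was at -0.02 and H2bc1 was too dim to test.

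**Figure D5:**
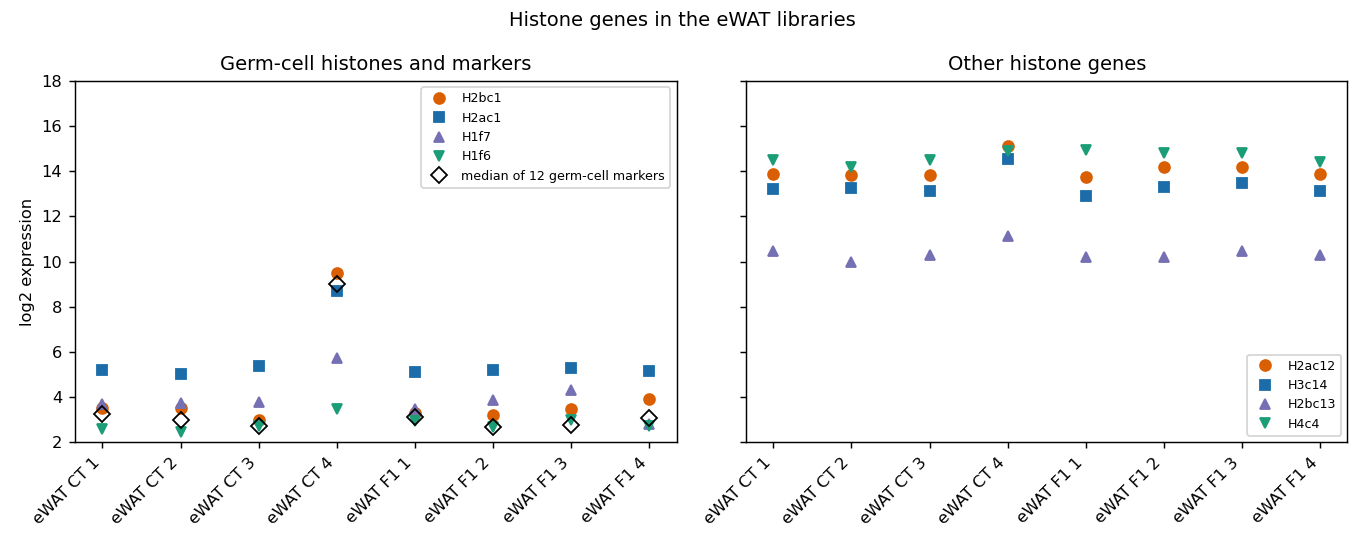
Log2 expression (vertical axis) in the 8 eWAT libraries (horizontal axis) of 4 germ-cell histone genes and the median of 12 male germ-cell markers (left), and of 4 other histone genes (right). H2bc1 at 9.51, H2ac1 at 8.69 and the marker median at 9.02 stand out in eWAT CT 4, where H2ac12 (15.13) and H3c14 (14.56) are also at their highest.

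Genes that make, process and carry histones were followed on lists. The list of transcription and processing factors, which start histone transcription (Npat, Hinfp) or bind and cut the stem-loop end of the mRNA (Slbp, Lsm10, Lsm11), had 15 of 16 genes on the array tested in each tissue. In liver 4 were higher and 11 lower in F1, with a median of -0.09 and 0 called. Lsm11, part of the U7 particle that guides the cut, was at -0.84 ± 0.22 (limma adjusted p = 0.256), Npat at -0.43 ± 0.21 and Slbp at -0.41 ± 0.30. Without Liver F1 4, 10 of the 15 were lower, with Lsm11 at -0.82 ± 0.25 and Npat at -0.60 ± 0.19 (adjusted p = 0.373). In eWAT 6 were higher and 9 lower, and Slbp was at -0.50 ± 0.21 (adjusted p = 0.468), and at -0.48 ± 0.23 without eWAT CT 4. Of 24 histone chaperones, 13 were higher in liver F1 and 10 in eWAT F1. Asf1b, which hands new H3 and H4 to the replication fork, had the smallest p in both tissues, at 0.57 ± 0.19 in liver (adjusted p = 0.389) and -0.87 ± 0.26 in eWAT (adjusted p = 0.389). Its groups did not overlap in either tissue, and its interaction value of 1.44 ± 0.33 was not called (adjusted p = 0.145). Without the library that stood apart, Asf1b was at 0.54 ± 0.21 in liver and -0.68 ± 0.24 in eWAT, and 10 of 24 chaperones were higher in liver F1 and 12 in eWAT F1.

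Replication and division genes, which are active when histones are made, were mixed in liver and mostly lower in eWAT F1. Of the S phase list 13 of 28 genes were higher in liver F1 (median -0.04) and 9 of 29 in eWAT F1 (median -0.15), and of the mitosis list 9 of 14 in liver F1 (median 0.11) and 3 of 17 in eWAT F1 (median -0.27). Without Liver F1 4, 15 of 28 S phase and 8 of 14 mitosis genes were higher in liver F1, and without eWAT CT 4, 11 of 29 and 7 of 17 in eWAT F1 (medians -0.09 and -0.16). The median level of the mitosis list was 5.53 in eWAT CT 4 and 4.46 to 5.21 in the other eWAT libraries. Tk1, which makes a DNA precursor, was at 0.71 ± 0.20 in liver (adjusted p = 0.298), and Cdc45, a helicase factor, at 0.55 ± 0.17 in eWAT (adjusted p = 0.389). The 9 histone variants outside the set, among them H3f3a, H3f3b and H2az1, which are made throughout the cell cycle, had 0 members at an unadjusted p under 0.05 in either tissue, with medians of 0.06 in liver and 0.11 in eWAT. Without eWAT CT 4 there was 1, the centromere histone Cenpa (-0.57 ± 0.25, adjusted p = 0.513). In these lists 0 genes were called by limma within either tissue, with or without the libraries that stood apart.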

How the data were processed

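The deposited table holds log2 expression values per probe set, to which the authors applied RMA, per the submitters' processing notes, which name Transcriptome Analysis Console 4.0; values have 2 decimals. RNA (150 ng) from frozen tissue was labelled with biotin, as cDNA, for Affymetrix arrays, per the labels' protocols. No genome build or scan batch is given in the sources used here. Of 22206 probe sets 19572 had a gene symbol in the platform annotation, and the brightest of each symbol was kept (19505 genes). The 3 further genes with older histone names (H2bu2, H4f16 and H4bc24) fall outside the symbol rule. Comparisons used limma 3.58.1 in R 4.3.3 (lmFit, eBayes) without a block, after leaving out genes with a mean below the libraries' 25th percentile. P-values were adjusted by Benjamini-Hochberg over all genes tested, and called at under 0.05. The interaction was fitted on the deposited values of 16 libraries, and tissues were compared after quantile normalization. The within-tissue procedure was run on simulated data, with changes in bright genes and independent noise. Those changes were larger than most F1 against CT differences given here, so recovery of differences of this size was not tested. Members and lists were chosen with earlier results of these data known. Members were named by smallest p, by groups that did not overlap, by size between tissues and by a germ-cell role; a few others, and the division by chromosome, were chosen after their values were seen. Precision is limited by the 4 arrays per group.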

Additional observations from a re-analysis of the deposited data

Results flagged for a closer look

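Among 72 groups of 4 libraries examined, in 18 members, 12 held a library whose gap to the nearest other exceeded Dixon's limit. Of the 12, 8 were eWAT CT 4 (H3c14 and H3c15, equal in value, count as 2 here). The 18 members were picked by p from these same values and are not independent, so no chance rate is set beside this count. In that library H2bc1 was at 9.51 (others of the group 2.96 to 3.50), H2ac1 at 8.69 (5.01 to 5.39), H1f7 at 5.73 (3.70 to 3.77), H3c13 at 13.90 (12.43 to 12.51), H3c14 and H3c15 at 14.56 (13.13 to 13.28), H4c18 at 13.56 (12.85 to 12.97) and H4c3 at 10.43 (10.30 to 10.32). Elsewhere, H4c14 was at 10.06 in Liver F1 1 (9.80 to 9.82), H1f7 at 3.81 in Liver CT 3 (3.51 to 3.56), H3c1 at 3.73 in eWAT CT 1 (2.53 to 2.67) and H2bc21 at 6.66 in eWAT CT 2 (5.93 to 5.99). H1f7 in liver and H3c1 in eWAT were too dim to be tested.

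H4c3 is listed because its F1 effect differed between the tissues, -1.39 in the limma interaction (liver minus eWAT, adjusted p = 0.00909).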

How the results depend on the processing

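Between the offspring groups, the count of histone genes called changed with 1 setting: fitting all 16 libraries together gave 1 in liver in place of 0. That gene was H4c3, with a difference of -0.76 and a limma adjusted p of 0.0290, while over all 15 settings its adjusted p ran from 0.0290 to 0.366. Between tissues the count ran from 36 to 43 in CT and from 39 to 46 in F1 over all settings. Leaving out 1 library at a time gave 0 to 0 in liver, 0 to 0 in eWAT, 1 to 1 for the interaction, 36 to 39 between tissues in CT and 39 to 42 in F1. H2ac1 in eWAT turned from -0.89 to 0.0067 when eWAT CT 4 and eWAT F1 1 were left out together, an alternative chosen after seeing the data. Without eWAT CT 4 alone or with F1 1, H2bc1 had no value in eWAT. Replicate numbers did not pair the samples by the threshold of 0.1 in every pair. Same-numbered libraries correlated at -0.26 to 0.18 between the eWAT groups and -0.05 to 0.05 between the liver groups. Across tissues they correlated at 0.01 to 0.04, and the best match was the same number in 3 of 4 CT and 4 of 4 F1 libraries, a hint from the data and not from the design. A block on them put CT and F1 libraries of the same number together in the within-tissue and interaction fits. For the interaction, a pairing of liver and eWAT within each offspring group was therefore not modelled. This block gave 0 called in liver, 0 in eWAT, 1 for the interaction, and 38 and 41 between tissues, and moved the count over all genes in liver from 23 to 6. That count was 51 in the fit of all 16 libraries and 74 with a robust fit and a trend in the variance. With 4 arrays a group and probe sets that may read several copies, F1 against CT differences of the size seen here mostly did not pass the test.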
